A study of Mus musculus with 12 samples.

Results

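Heat shock proteins and DNAJ proteins are the molecular chaperones of the cell, and their genes were taken here as every gene of the counts table whose symbol names an HSP70 (Hspa), small heat shock protein (Hspb), HSP60 (Hspd), HSP10 (Hspe), HSP110 (Hsph), HSP90 or DNAJ family A, B or C gene, with a mean RPKM that reached at least 1. RPKM gives a count relative to exon length and library size, so that levels can be compared between genes. Where exons overlap those of another gene, pairs touching both were not counted, so such a level can be too low. The pattern matched 70 symbols, of which 56 passed the minimum, out of 11378 genes that passed it and 24421 genes in the table. The 56 genes comprised 3 of the HSP90 family, 10 of the HSP70 and HSP110 families, 2 of the HSP60 and HSP10 families, 4 with small heat shock protein symbols (Hspb), 3 DNAJA, 9 DNAJB and 25 DNAJC genes. Of these, Hspb11 is a heat shock gene by name only, as it encodes IFT25, a subunit of the intraflagellar transport complex. By textbook location, 30 act in the cytosol or nucleus, 10 in the endoplasmic reticulum (ER) and 8 in mitochondria, while 8 were not assigned. Those not assigned include membrane J proteins such as Dnajc14, Dnajc16, Dnajc18 and Dnajc25, so the ER group may not hold every ER gene.

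RNA-seq was performed on mouse embryonic stem (mES) cells of strain B6, given in the methods of the study as C57BL/6J, grown in 2i+LIF medium, with a dTag knock in at Brg1. The tag is a degron through which the small molecule dTAG13 directs BRG1, the ATPase of mSWI/SNF chromatin remodelling complexes, to the proteasome. Cells received 0.3, 1, 3, 10 or 100 nM dTAG13 for 24 h, and the control without dTAG13 is called 0 nM, with treatment N/A in the labels and DMSO in the paper, with 2 libraries per dose and 12 in all. All 6 groups carry the knock in, the line was grown from colonies of single cells, and a group without the tag or with another tagged protein was not used here, so effects of dTAG13 apart from BRG1 loss cannot be told apart from BRG1 loss.

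Chaperones keep proteins from misfolding. HSP70 proteins bind exposed hydrophobic stretches in cycles driven by ATP, J-domain proteins of the DNAJ families bring clients and trigger hydrolysis, and nucleotide exchange factors such as the HSP110 proteins reset the cycle. HSP90 acts later, on kinases, receptors and other signalling proteins, HSP60 and HSP10 form a folding chamber in mitochondria, and small heat shock proteins hold unfolded proteins without using ATP. Heat shock factor 1 (HSF1) induces chaperone genes, cytosolic ones among them, through heat shock elements, inverted repeats of GAA. The unfolded protein response induces chaperone genes of the ER through the ER stress response element, which binds NF-Y and ATF6.

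Promoter sequences are shown for the 5 genes that carry the contrasts described below: the small heat shock protein genes Hspb8 and Hspb1, the ER genes Hsp90b1 and Hspa5, and Hspe1, an abundant mitochondrial gene whose level did not change detectably. Each is the 250 bases before the RefSeq transcript start on GRCm38.p6, the assembly of mm10, read 5′ to 3′ on the strand of the gene. Capitals mark a heat shock element of 2 units (GAANNTTC or TTCNNGAA) or 3 units (GAANNTTCNNGAA or TTCNNGAANNTTC, which contains the shorter one), or an ER stress response element (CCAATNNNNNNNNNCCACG), searched on both strands. Hspb8 lies on the minus strand, at chr5:116422865-116423114, and Hspb1 on the plus strand, at chr5:135887669-135887918. Hsp90b1 is on the minus strand, at chr10:86705445-86705694, Hspa5 on the plus strand, at chr2:34771840-34772089, and Hspe1 on the plus strand, at chr1:55087898-55088147.
Hspb8: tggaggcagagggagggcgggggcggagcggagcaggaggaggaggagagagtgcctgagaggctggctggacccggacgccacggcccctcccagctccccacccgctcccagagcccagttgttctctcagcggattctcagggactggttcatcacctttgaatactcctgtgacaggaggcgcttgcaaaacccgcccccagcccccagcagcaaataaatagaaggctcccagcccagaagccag
Hspb1: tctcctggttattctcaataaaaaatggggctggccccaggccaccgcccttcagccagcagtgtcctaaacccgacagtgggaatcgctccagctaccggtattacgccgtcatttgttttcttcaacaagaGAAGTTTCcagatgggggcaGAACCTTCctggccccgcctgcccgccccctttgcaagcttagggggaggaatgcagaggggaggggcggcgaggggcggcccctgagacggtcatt
Hsp90b1: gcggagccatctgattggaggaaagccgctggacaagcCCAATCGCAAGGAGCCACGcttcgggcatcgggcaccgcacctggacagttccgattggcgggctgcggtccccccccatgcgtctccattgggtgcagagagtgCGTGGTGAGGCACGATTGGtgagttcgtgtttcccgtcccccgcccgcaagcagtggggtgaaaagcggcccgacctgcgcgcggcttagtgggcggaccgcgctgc
Hspa5: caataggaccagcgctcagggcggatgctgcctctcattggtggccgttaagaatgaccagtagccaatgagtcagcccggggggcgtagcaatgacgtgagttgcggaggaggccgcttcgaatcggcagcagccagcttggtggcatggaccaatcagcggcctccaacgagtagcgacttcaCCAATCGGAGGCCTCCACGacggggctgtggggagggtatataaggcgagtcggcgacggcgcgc
Hspe1: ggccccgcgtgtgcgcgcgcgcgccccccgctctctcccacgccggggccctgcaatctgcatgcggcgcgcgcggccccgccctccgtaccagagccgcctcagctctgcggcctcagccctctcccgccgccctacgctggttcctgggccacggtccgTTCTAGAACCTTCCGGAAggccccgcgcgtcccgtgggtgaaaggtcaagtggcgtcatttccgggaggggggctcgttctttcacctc

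The window of Hspb1 held heat shock elements of 2 units starting 117 and 97 bases before the start, and the letters of neither element were found in the window of Hspb8. Hsp90b1 held ER stress response elements 212 and 107 bases before the start, and Hspa5 held 1 at 65 bases. In Hspe1, which faces Hspd1 head to head, overlapping elements of 3 units began 89 and 84 bases before the start. Promoters were found for 44 of the 56 genes. The 2-unit element was in 10 of these 44 (22.7%), against 14.5% of the 27025 genes and 12.8% of the 32851 promoters in the reference table. The ER stress response element was in 3 of the 44, Hsp90b1, Hspa5 and Dnajc3, all of them among the 9 ER genes with a promoter, and in 0.13% of all genes and 0.113% of all promoters. These matches describe letters in a window and are not evidence of binding.

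Each library held between 4663484 and 6375582 counts, and replicate libraries of a dose differed by more than counting noise. Chi-square per degree of freedom over the tested genes was 2.05 to 18.4. Rn45s, a ribosomal RNA gene, enters that measure and made up 10.5% to 19.4% of the counts of a library. The highest value was at 3 nM, where Rn45s took 10.5% and 19.0% of the counts. Its part in the measure was not tested. Of the genes listed as naive ES cell markers, the pluripotency genes Pou5f1 (488 to 647 RPKM) and Sox2 (54.8 to 74.4 RPKM) were high in every library. All 6 primitive endoderm and all 6 fibroblast markers stayed under 1 RPKM in every library. At 100 nM, 2 of the 8 naive markers were called higher and 4 lower, against 10.1% and 13.3% over all tested genes. Tfcp2l1 (log2 fold change -0.64), Dppa5a (-0.48), Pou5f1 (-0.17) and Esrrb (-0.17) were lower, and Nanog (0.52) and Klf4 (0.28) higher. Of the 4 trophectoderm markers tested, 3 were higher, led by Cdx2 with 4.76 RPKM against 0.552 RPKM at 0 nM. The other one, Gata3, stood lower at 100 nM, at 0.563 against 1.33 RPKM (log2 fold change -1.23, adjusted p = 0.0919, edgeR). In the trend over dose described below, 3 of the 4 were called higher and 1 lower. Their part in the results below was not tested. Transcripts of Smarca4, the gene of BRG1, stood between 63.5 and 71.3 RPKM, which does not check depletion because the degron acts on the protein. In bulk RNA, fewer cells of a type and less RNA per cell cannot be told apart.

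To see which chaperone genes differed with dTAG13, the libraries of a dose were set against those of 0 nM in edgeR's quasi-likelihood test. A gene was called at a Benjamini-Hochberg adjusted p under 0.05 over all tested genes. At 100 nM, the smallest adjusted p-values were those of the falls of Hspb8 and Hspb1, small heat shock protein genes, and the most abundant cytosolic and mitochondrial chaperones were not called. The call was higher for 3 of the 56 genes (5.36%) and lower for 10 (17.9%), against 10.1% higher and 13.3% lower over all tested genes. The genes called higher were Dnajc1, Dnajc16 and Hspa4. The genes called lower were Hspb8, Dnajb13, Hspb1, Hspa2, Dnajc6, Dnajc15, Hsp90b1, Dnaja1, Dnajc5 and Hspa5. The first 5 of these also passed a fold change of 1.5, while 0 were higher past that fold, against 6.83% lower and 4.37% higher over all tested genes. The median log2 fold change of the 56 genes was -0.019, against 0 over all tested genes. Within 10% of their level at 0 nM lay 27 of the 56, against 4011 of all 11378 tested genes. Without replicate 2 of 0 nM the calls were 0 higher and 4 lower, without replicate 1 of 100 nM 2 and 5, and without replicate 2 of 100 nM 1 and 6. Past 1.5-fold, 2 were lower without replicate 2 of 0 nM, 3 lower and 1 higher without replicate 1 of 100 nM, and 2 higher without replicate 1 of 0 nM. Hspb8, Hspb1 and Hsp90b1 were called lower at 100 nM in the main analysis and all 23 alternatives. DESeq2's Wald test did not call Hspa2, Dnajc15, Dnajc1, Hspa5, Dnajc5 or Dnajb13, and without normalization factors Hspa4, Hspa2, Dnajc15, Hspa5, Dnajc5 and Dnaja1 were not called.

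**Figure D1:**
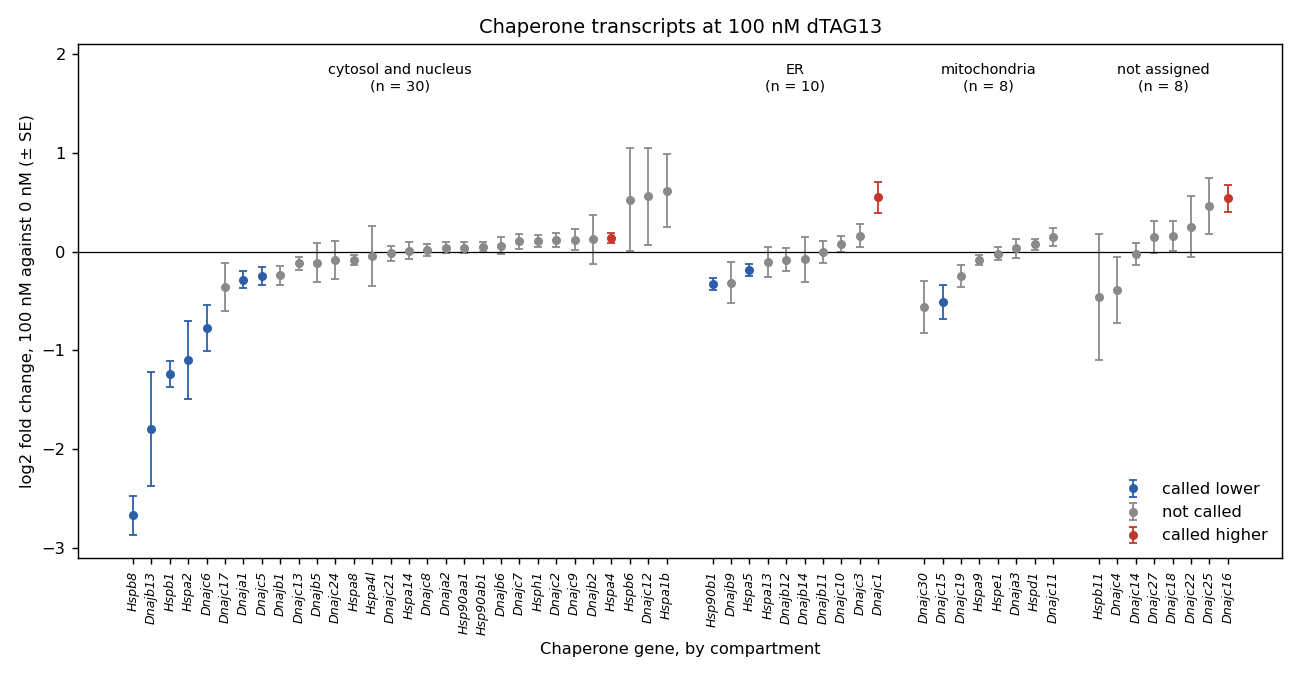
Log2 fold change (± standard error) of each of the 56 chaperone genes at 100 nM against 0 nM dTAG13, grouped by compartment, with genes called higher in red, called lower in blue and not called in grey. Hspb8 lies lowest at -2.67, and the genes of low count carry the longest bars.

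Fewer genes were called at the lower doses, 0, 1, 6 and 4 at 0.3, 1, 3 and 10 nM against 13 at 100 nM. At 0.3 nM, 0 of the 56 genes were called in either direction by edgeR, against 0% higher and 0.0703% lower over all genes. At an unadjusted p under 0.05 there were 4 (1 higher, 3 lower), against 361 higher and 498 lower among all 11378 tested genes. DESeq2's Wald test called 1 gene lower at that dose, and edgeR did so without either library of 3 nM. At 1 nM, 0 were higher and 1, Hsp90b1, was lower (0.773% and 1.52% over all genes). At an unadjusted p under 0.05, 2 were higher and 5 lower, against 686 and 850 of all 11378 tested genes. At 3 nM, Dnajc1 and Dnajc16 were higher and Hspb8, Hspb1, Hsp90b1 and Dnajc5 lower (4.15% and 5.25% over all genes). At 10 nM, Dnajc1 was higher and Hspb8, Hspb1 and Hsp90b1 were lower (7.87% and 10.1%). These comparisons share the 0 nM libraries. The single call at 1 nM was lost without replicate 1 of 0 nM or of 0.3 nM, or without either library of 1 nM or 100 nM. At 3 nM, 0 were higher without replicate 2 of 0 nM or replicate 1 of 3 nM, and 1 was lower without the latter. Without any other library but replicate 2 of 10 nM, 1 was higher. At 10 nM the higher call was lost without replicate 2 of 0, 0.3, 1 or 10 nM.

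Hspb8 encodes HSP22, a small heat shock protein that works with BAG3 in the selective clearance of misfolded proteins. The gene lies on mm10 chromosome 5 from 116408491 to 116422864. Its level was 21.8 and 21.5 RPKM with 0 nM, 19.4 and 18.3 with 0.3 nM, 18.3 and 14.3 with 1 nM, 11.4 and 11.6 with 3 nM, 5.83 and 9.32 with 10 nM, and 3.92 and 2.88 with 100 nM. All 10 treated libraries lay below both 0 nM libraries, and the mean fell at each step of dose. On the log2 scale it fell by 0.92 with 3 nM (standard error 0.16, adjusted p = 0.000406, edgeR), by 1.52 with 10 nM (standard error 0.17, adjusted p = 2.75e-07, edgeR) and by 2.67 with 100 nM (95% interval -3.07 to -2.27, adjusted p = 8.69e-11, edgeR). The mean at 100 nM was 15.7% of the mean at 0 nM, on counts of 43 and 32 against 231 and 240.

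Hspb1 encodes HSP27, known as HSP25 in the mouse, a small heat shock protein that also acts on actin filaments. It lies on chromosome 5 from 135887919 to 135889563. Its level was 90.9 and 88.8 RPKM with 0 nM, 91.2 and 84.5 with 0.3 nM, 71.7 and 76.3 with 1 nM, 53.5 and 68.1 with 3 nM, 50.9 and 35.8 with 10 nM, and 42.4 and 34.0 with 100 nM. The 0.3 nM libraries overlapped those of 0 nM, and from 1 nM on every library was lower than both 0 nM libraries. A log2 fold change of -0.56 was found with 3 nM (adjusted p = 0.00456), of -1.05 with 10 nM (adjusted p = 1.43e-06) and of -1.23 with 100 nM (95% interval -1.51 to -0.96, adjusted p = 7.79e-08, all from edgeR). The heat shock elements printed above are in this gene's promoter window and were not found in that of Hspb8.

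The other 2 Hspb genes, Hspb6 and Hspb11, were not called at any dose. Hspb6, which encodes HSP20, ranged from 0.521 to 1.97 RPKM on 4 to 16 counts, and at 100 nM its log2 fold change was 0.52 with a 95% interval from -0.55 to 1.60. Hspb11, which encodes IFT25 and is not a chaperone, ranged from 1.17 to 5.03 RPKM on 4 to 17 counts, and its log2 fold change at 100 nM was -0.46 (95% interval -1.78 to 0.86). Hspb6 was the gene nearest above the expression minimum, at a mean of 1.09 RPKM on the scale of that filter. Dnajc28, a mitochondrial J protein, was the nearest below it at 0.825 RPKM.

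**Figure D2:**
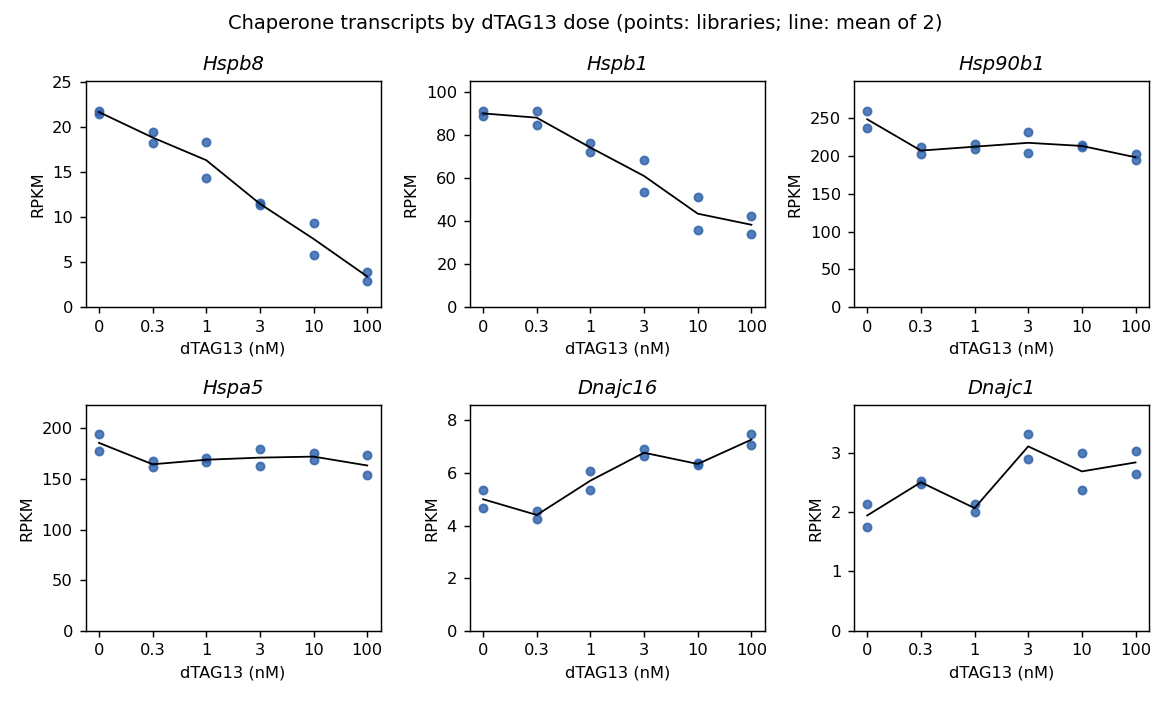
RPKM of 6 chaperone genes in each library (points) and the mean of 2 libraries (line) against dTAG13 dose in nM, with doses spaced by order and each vertical axis starting at 0. Hspb8 and Hspb1 fall stepwise, the ER genes Hsp90b1 and Hspa5 are lower at every dose than at 0 nM without a further step from 0.3 to 10 nM, and Dnajc16 and Dnajc1 lie above 0 nM from 3 nM on.

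Hsp90b1 encodes GRP94, the HSP90 of the ER, which folds integrins and Toll-like receptors. It lies on chromosome 10 from 86690841 to 86705444. The gene stood at 260.5 and 237.3 RPKM with 0 nM, 203.3 and 211.5 with 0.3 nM, 215.9 and 209.3 with 1 nM, 203.8 and 231.7 with 3 nM, 212.4 and 214.8 with 10 nM, and 194.4 and 202.8 with 100 nM. All 10 treated libraries lay below both 0 nM libraries, from the lowest dose on. Against 0 nM the log2 fold change was -0.26 with 0.3 nM (adjusted p = 0.142), -0.23 with 1 nM (0.0421), -0.19 with 3 nM (0.0428), -0.22 with 10 nM (0.0109) and -0.33 with 100 nM (95% interval -0.45 to -0.20, adjusted p = 0.000196, all from edgeR). Between 0.3 and 3 nM the difference was 0.07 with a 95% interval from -0.05 to 0.20.

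Hspa5 encodes BiP, the HSP70 of the ER lumen, and lies on chromosome 2 from 34772090 to 34776529. Its level was 194.2 and 177.2 RPKM with 0 nM, 161.7 and 167.4 with 0.3 nM, 167.2 and 170.8 with 1 nM, 163.0 and 179.2 with 3 nM, 168.7 and 175.5 with 10 nM, and 153.5 and 173.2 with 100 nM. Only a 3 nM library overlapped the range of 0 nM. The difference was called at 100 nM alone (log2 fold change -0.18, standard error 0.064, adjusted p = 0.0372, edgeR). That call was lost without replicate 1 of 0 nM and without replicate 1 of 100 nM, where the log2 fold change was -0.12 and -0.10 and the adjusted p reached 0.428 (edgeR). The means of Hspa5 and Hsp90b1 were both lower at every dose than at 0 nM, and all these differences rest on the same 2 libraries of 0 nM.

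Dnajc10, which encodes the disulfide reductase ERdj5, stood at 24.0 and 25.2 RPKM with 0 nM, 22.9 and 23.4 with 0.3 nM, 25.3 and 25.9 with 1 nM, 28.1 and 28.3 with 3 nM, 25.9 and 29.3 with 10 nM, and 25.0 and 26.8 with 100 nM. The 3 nM libraries were above those of 0.3 nM and the 100 nM libraries overlapped those of 0 nM. At 100 nM its log2 fold change was 0.08 (95% interval -0.09 to 0.24).

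Dnajc1 encodes ERdj1, a J protein of the ER membrane that touches ribosomes, and lies on chromosome 2 from 18206333 to 18392830. It was 2.14 and 1.74 RPKM with 0 nM, 2.53 and 2.47 with 0.3 nM, 2.00 and 2.13 with 1 nM, 3.31 and 2.90 with 3 nM, 2.37 and 3.00 with 10 nM, and 2.64 and 3.03 with 100 nM. Every dose but 1 nM lay above 0 nM without overlap. It rose by 0.68 on the log2 scale with 3 nM (adjusted p = 0.00606), by 0.47 with 10 nM (0.0413) and by 0.55 with 100 nM (95% interval 0.23 to 0.87, adjusted p = 0.0115, all from edgeR). At 100 nM the call was lost without replicate 2 of 0 nM, where the log2 fold change was 0.40, and without replicate 2 of 100 nM (0.45). Exons of Mllt10 on the other strand cover 43.6% of its exon length. The counting ignored strand and dropped pairs that touched both genes, and Mllt10 itself had a log2 fold change of 0.03 (adjusted p = 0.823, edgeR).

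The summed RPKM of the 10 ER genes was 546.5 and 506.2 with 0 nM and 435.3 and 471.2 with 100 nM, a mean of 86.1% of the 0 nM level. Means of 86.8%, 89.1%, 92.3% and 91.2% were found at 0.3, 1, 3 and 10 nM. A 3 nM library at 97.2% overlapped the lower 0 nM library at 96.2%, and all other treated libraries lay below both. Hsp90b1 and Hspa5, with means of 216 and 171 RPKM, made up most of this sum. The 30 cytosolic and nuclear genes summed to 99.4% of 0 nM at 100 nM and the 8 mitochondrial genes to 98.0%. The sums carry no test, because genes are not replicates of a dose. In calls at 100 nM, 1 of the 30 cytosolic and nuclear genes was higher and 7 were lower. The counts were 1 and 2 of the 10 ER genes, 0 and 1 of the 8 mitochondrial genes, and 1 and 0 of the 8 not assigned. Over all tested genes 10.1% were higher and 13.3% lower, and the compartments were not tested against each other. Median log2 fold changes were -0.005 in the cytosol and nucleus, -0.053 in mitochondria, -0.079 in the ER and 0.154 in the genes not assigned. The counts and medians depend on this sorting, as membrane J proteins such as Dnajc16, which was called higher, were not assigned.

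**Figure D3:**
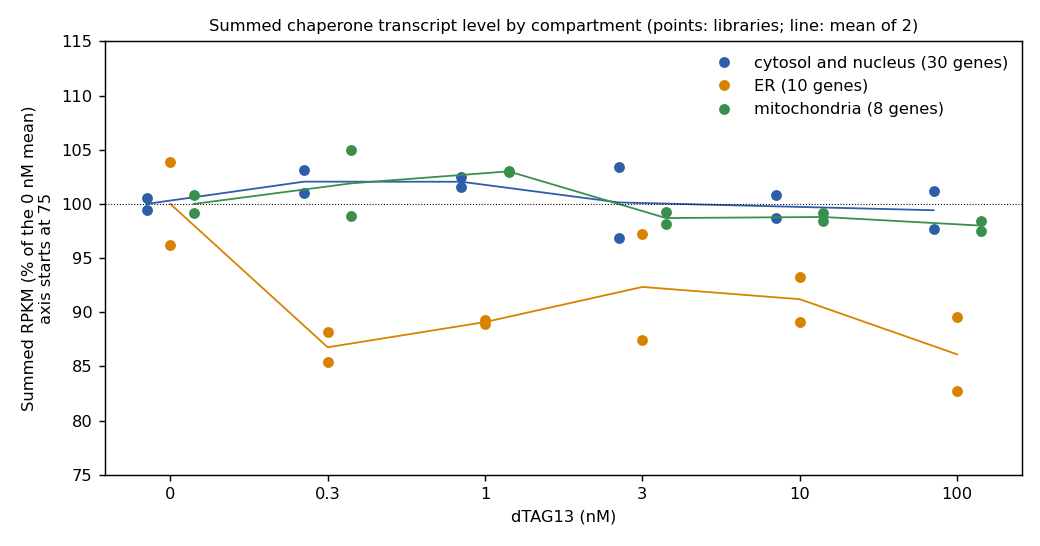
Summed RPKM of the 30 cytosolic and nuclear, 10 ER and 8 mitochondrial chaperone genes in each library, in percent of the 0 nM mean, against dTAG13 dose in nM, with points for libraries, lines for the mean of 2 and a vertical axis that starts at 75. The ER sum lies between 82.7% and 97.2% in treated libraries, and the other sums stay near 100%.

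The most abundant chaperones differed little between doses. The leading 3 cytosolic genes made up most of all chaperone RPKM: Hsp90aa1, the inducible HSP90, with 23.4%, Hspa8, the constitutive HSC70, with 21.2%, and Hsp90ab1, the constitutive HSP90, with 20.2%. Hsp90aa1 stood at 1613 and 1623 RPKM with 0 nM and 1685 and 1643 with 100 nM, a log2 fold change of 0.04 (95% interval -0.07 to 0.15). For Hspa8 the levels were 1500 and 1550 against 1459 and 1417 RPKM, a log2 fold change of -0.08 (-0.19 to 0.02). Hsp90ab1 stood at 1465 and 1365 against 1501 and 1428 RPKM, a log2 fold change of 0.05 (-0.05 to 0.15). None of these 3 was called at any dose by edgeR with the main settings. The 100 nM libraries lay below both 0 nM libraries for Hspa8, above them for Hsp90aa1, and overlapped them for Hsp90ab1.

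Differences were also small in the mitochondrial folding genes. Hspa9, which encodes mortalin, stood at 283.0 and 279.9 RPKM with 0 nM and 269.5 and 260.6 with 100 nM, a log2 fold change of -0.09 (95% interval -0.19 to 0.02). Hspd1, which encodes HSP60, stood at 268.0 and 257.7 against 270.8 and 281.9 RPKM (0.07, interval -0.04 to 0.19), and Hspe1, which encodes HSP10, at 210.6 and 232.9 against 216.2 and 221.4 RPKM (-0.02, interval -0.16 to 0.12). The partners Hspd1 and Hspe1, which share a promoter region, were not called at any dose. With TMM factors taken over all genes of the table, Hspa8 and Hspa9 were called lower at 100 nM. Each had a log2 fold change of -0.17 there. Hspa8 and Hspa9 each stayed uncalled in 21 of 23 alternatives, so this was not the only setting that called them. With TMM over all genes, Hsp90aa1, Hsp90ab1, Hspd1 and Dnajc10 had log2 fold changes slightly below 0. That scaling moved the share of higher among all calls from 43.2% to 26.9% and the median of all tested genes to -0.081, and relative to that median Hspa8 and Hspa9 were as in the main analysis. Under that scaling 2 chaperone genes were higher and 15 lower, against 802 higher and 2174 lower among all 11378 tested genes. Without normalization factors the share of higher among all calls was 53.1% (1153 genes higher and 1019 lower), with 2 chaperone genes higher and 5 lower.

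**Figure D4:**
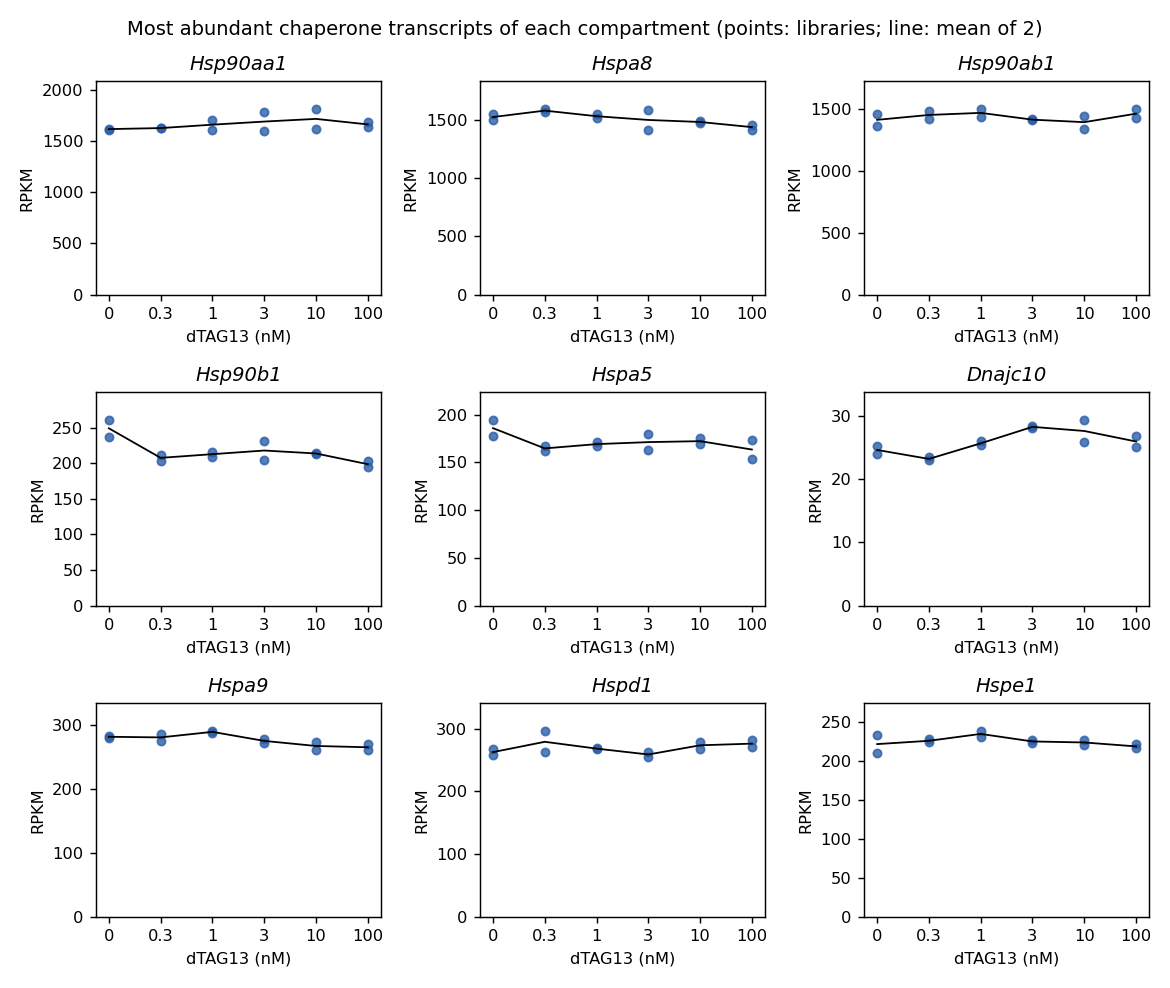
RPKM of the 3 most abundant chaperone genes of the cytosol and nucleus (top), ER (middle) and mitochondria (bottom) in each library (points) and the mean of 2 libraries (line) against dTAG13 dose in nM, spaced by order, with each vertical axis starting at 0. Hsp90b1 is highest in the 0 nM libraries, and the cytosolic and mitochondrial genes run nearly level.

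Among the other HSP70 genes, Hspa4, an HSP110 nucleotide exchange factor, was higher at 100 nM by the smallest margin of the 13 chaperone genes called. It stood at 187.0 and 181.7 RPKM with 0 nM and 201.5 and 204.3 with 100 nM, and all 10 treated libraries (188 to 204 RPKM) lay above both 0 nM libraries. The log2 fold change was 0.14 (95% interval 0.04 to 0.24, adjusted p = 0.0465, edgeR), and the call was lost when either library of 0, 0.3, 1 or 100 nM was left out, with an adjusted p of up to 0.248 (edgeR). It was also lost with the likelihood ratio test, without normalization factors, with filterByExpr, with all genes of at least 1 count and with TMM over all genes of the table, where the adjusted p reached 0.533, and it was kept in 9 of 23 alternatives. Hspa2, best known from testis, was near the expression minimum, at 1.66 and 1.64 RPKM with 0 nM and 0.803 and 0.732 with 100 nM. All 10 treated libraries of Hspa2 were below both 0 nM libraries, and by 100 nM it differed by -1.10 on the log2 scale (standard error 0.39, adjusted p = 0.0443, edgeR) on 26 and 27 against 13 and 12 counts. Its call was lost without any 1 of these 4 libraries, with an adjusted p of up to 0.179 (edgeR).

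The inducible HSP70 genes Hspa1a and Hspa1b are near-identical copies on chromosome 17, so reads that fit both were not counted and their levels are uncertain. Hspa1b (34956429 to 34959238) had 18 to 44 counts per library, 1.28 and 1.16 RPKM with 0 nM and 1.18 and 2.56 with 100 nM. The 100 nM libraries spread on both sides of those of 0 nM, and the log2 fold change was 0.62 (95% interval -0.15 to 1.38). It turned to -0.05 without replicate 2 of 100 nM. Hspa1a (34969359 to 34972156) had 0 to 11 counts and did not pass the minimum.

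J proteins made up most of the remaining calls. Dnajc16, a membrane J protein on chromosome 4 from 141761998 to 141790644, stood at 5.35 and 4.66 RPKM with 0 nM, 4.24 and 4.57 with 0.3 nM, 6.06 and 5.36 with 1 nM, 6.64 and 6.91 with 3 nM, 6.38 and 6.31 with 10 nM, and 7.07 and 7.48 with 100 nM. Libraries from 1 nM on were above both 0 nM libraries, and the 0.3 nM libraries were below them. Its log2 fold change at 100 nM was 0.54 (95% interval 0.26 to 0.82, adjusted p = 0.00414, edgeR), and without replicate 2 of 0 nM it was 0.44 (adjusted p = 0.077, edgeR).

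Dnaja1, a class A partner of HSC70, fell from 39.0 and 43.9 RPKM with 0 nM to 35.0 and 33.2 with 100 nM, with no overlap, and its mean fell at each step of dose. At 100 nM it differed by -0.28 on the log2 scale (standard error 0.083, adjusted p = 0.0136, edgeR). Without replicate 2 of 0 nM or replicate 2 of 100 nM the adjusted p passed 0.05 and reached 0.215 (edgeR). Smu1 on the other strand overlaps 77.9% of the exon length of Dnaja1, and its log2 fold change was -0.08 (adjusted p = 0.50, edgeR). Across the 56 genes, 7 overlapped an exon of another gene on the opposite strand.

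Dnajc5, the cysteine string protein of secretory vesicles, fell from 15.5 and 15.5 RPKM with 0 nM to 13.6 and 12.6 with 100 nM, and all 10 treated libraries lay below both 0 nM libraries. Its log2 fold change was -0.30 at 3 nM (adjusted p = 0.0342) and -0.25 at 100 nM (adjusted p = 0.0445, both from edgeR). The call at 100 nM was lost without either library of 0, 1 or 100 nM (adjusted p up to 0.265, edgeR), and also with DESeq2's Wald test, upper quartile factors, no normalization factors, the likelihood ratio test or a fit of 0, 1, 10 and 100 nM alone. It was kept in 11 of 23 alternatives. Dnajc15, a J protein of the inner mitochondrial membrane, stood at 26.8 and 35.4 RPKM with 0 nM and 19.9 and 23.7 with 100 nM. The groups did not overlap but the 0 nM libraries were far apart, and the log2 fold change of -0.51 (adjusted p = 0.0300, edgeR) was -0.30 without replicate 2 of 0 nM and -0.39 without replicate 1 of 100 nM, with the call lost in both (adjusted p up to 0.376, edgeR).

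Dnajc6 and Dnajb13, known from neurons and from sperm, were called at low levels. Dnajc6, which encodes the clathrin uncoating factor auxilin, stood at 2.09 and 3.02 RPKM with 0 nM and 1.33 and 1.66 with 100 nM. Only the 100 nM libraries of Dnajc6 were below those of 0 nM, while the other 4 doses overlapped 0 nM. The log2 fold change was -0.77 (adjusted p = 0.0154, edgeR), and the call was lost without replicate 2 of 0 nM (-0.48) or replicate 1 of 100 nM (-0.62). Dnajb13 had 10 and 18 counts with 0 nM and 4 and 4 with 100 nM, or 1.502 and 2.56 against 0.579 and 0.572 RPKM. At 100 nM the difference was -1.79 on the log2 scale (standard error 0.58, adjusted p = 0.0255, edgeR) and the call was lost without replicate 2 of 0 nM or either library of 100 nM, with an adjusted p of up to 0.242 (edgeR).

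A linear trend over the order of the 6 doses was then tested, which uses all 12 libraries. It was called higher for 3 of the 56 genes and lower for 9, against 14.9% and 17.3% over all tested genes. The falling slopes were steepest in Hspb8 (-0.51 log2 units per step of dose, adjusted p = 2.63e-12), Dnajb13 (-0.37, adjusted p = 0.00419) and Hspb1 (-0.27, adjusted p = 4.29e-10, all from edgeR). Dnajc6, Dnajc15, Dnajb1, Dnaja1, Dnajc5 and Hsp90b1 also had falling slopes, and Dnajc16 (0.13), Dnajc1 (0.10) and Dnajc10 (0.04) had rising ones. Dnajb1, named after its values were seen, is the inducible HSP40 and a textbook target of HSF1. It stood at 21.7 and 24.2 RPKM with 0 nM and 19.5 and 19.3 with 100 nM, with a slope of -0.06 (adjusted p = 0.00701, edgeR). At 100 nM Dnajb1 was not called (log2 fold change -0.24, adjusted p = 0.0675, edgeR), and this held in 19 of 23 alternatives. Neither heat shock element was found in its promoter window. Without replicate 2 of 0 nM, 3 falling trends were called.

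The library names end in numbers that run from 1 to 8 without repeats over 0, 1, 10 and 100 nM, while the 0.3 and 3 nM libraries carry 3 to 6 again. No label says what the numbers mark, and a shared run is only inferred from them. The 3 nM libraries were therefore also compared with those of 0.3 nM. In that comparison Dnajc16 and Dnajc10 were higher and Hspb8 and Hspb1 lower, 2 genes in each direction, against 2.43% and 2.88% over all tested genes. The log2 fold changes were 0.62 for Dnajc16 (adjusted p = 0.00915), 0.29 for Dnajc10 (0.0359), -0.71 for Hspb8 (0.00919) and -0.53 for Hspb1 (0.013, all from edgeR). No 0 nM library enters these fold changes, although all groups share an estimate of the spread. Both falls were lost without replicate 1 of 0.3 nM, and 1 of them without either library of 3 nM. Both rises were lost without replicate 1 of 0.3 nM or replicate 2 of 3 nM, and 1 of them without replicate 2 of 0, 0.3 or 1 nM or replicate 1 of 3 nM. In a fit of 0, 1, 10 and 100 nM alone, 3 chaperone genes were higher and 9 lower at 100 nM. The calls over all tested genes were not counted in that fit.

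Genes that work with the chaperones were counted from written lists. Of 9 regulators of the stress response, 1 was higher and 1 lower at 100 nM: Hsf1 rose (log2 fold change 0.33, adjusted p = 0.0168) and Atf4 fell (-0.19, adjusted p = 0.0251, both from edgeR). Of 27 cytosolic co-chaperones, 3 were higher and 1 lower. Bag3, the partner of HSPB8, averaged 1.55 ± 0.241 RPKM (SD, n = 2) in the 0 nM libraries and 2.82 ± 0.558 RPKM (SD, n = 2) at 100 nM, a log2 fold change of 0.86 (adjusted p = 0.0355, edgeR), so the transcripts of the 2 partners differed from 0 nM in opposite directions. Cdc37l1 (0.35) and Ppp5c (0.27), both HSP90 co-chaperones, were higher, and Fkbp4, the HSP90 immunophilin FKBP52, was lower (-0.29, adjusted p = 0.000748, edgeR). Of these genes Fkbp4 alone was called under every alternative. Hsf1, Atf4, Bag3 and Ppp5c were not called without replicate 1 or without replicate 2 of 0 nM, and Cdc37l1 was not called without replicate 2. Without replicate 1 of 100 nM the calls of Hsf1, Cdc37l1 and Ppp5c were lost, and without replicate 2 those of Atf4, Bag3 and Ppp5c.

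Of 26 genes of ER stress and folding, 1 was higher and 4 lower at 100 nM. The gene called higher was P4hb (log2 fold change 0.20, adjusted p = 0.00904, edgeR), and Xbp1 (-0.41), Atf6 (-0.40), Sec61b (-0.35) and Pdia4 (-0.27) were lower. Xbp1 and Atf6 encode transcription factors of the unfolded protein response. The calls of Sec61b and Pdia4 were lost without replicate 2 of 0 nM, that of Atf6 without replicate 1, and that of Xbp1 without either. All 4 lower calls were also lost without replicate 1 of 100 nM, and Xbp1 without replicate 2. The call of P4hb was not followed under the alternatives. At 0.3 nM, 0 of the 26 were called, with a median log2 fold change of -0.18 against -0.001 over all tested genes. Of the 26, 23 were negative, against 5735 of all 11378 tested genes, and these differences share the 2 libraries of 0 nM. Between 0.3 and 3 nM the median was 0.13, and 3 of the 26 were called higher (11.5%) and 0 lower. Over all tested genes 2.43% were higher and 2.88% lower in that comparison. In mitochondrial protein quality control, 1 of 15 genes was higher (Clpp, 0.39) and 1 lower (Htra2, -0.43), and of 14 genes of the TRiC chaperonin and prefoldin 1 was higher (Cct3, 0.19) and 1 lower (Pfdn1, -0.28). All 4 of these calls were lost without replicate 1 of 100 nM. Cct3 was also lost without any other library of 0 or 100 nM, Pfdn1 without replicate 2 of either dose, and Htra2 without replicate 1 of 0 nM, replicate 2 of 100 nM or either library of 0.3 or 1 nM. At 100 nM the shares called over all tested genes were 10.1% higher and 13.3% lower, as given above.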

How the data were processed

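RNA-seq libraries of mES cells with degron-tagged BRG1 were analysed at 6 doses of dTAG13. The authors trimmed the reads with Trim Galore, aligned them to mm10 with HISAT2 and counted read pairs on exons with featureCounts 2.0.1, and deposited these raw counts per gene symbol with the exon lengths. Pairs needed both ends aligned, multi-mapped pairs and pairs touching more than 1 gene were not counted, and strand was not used although the kit keeps it. Doses were taken from the sample labels, and every library column was used.

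The counts were analysed in R 4.3.3 with the packages edgeR 4.0.16, limma 3.58.1 and DESeq2 1.42.0. A gene was tested where its mean RPKM reached 1. TMM factors (0.947 to 1.06) and library sizes were taken over these genes, so a shift common to all of them would not be seen. The 6 doses were fitted together, and contrasts were tested by the quasi-likelihood method of edgeR, with p-values adjusted after Benjamini and Hochberg over all tested genes. The labels do not say whether the 2 libraries of a dose came from separate cultures, while the paper describes its replicates as biological and these data as independent experiments. The p-values measure the spread between these libraries. Totals of 4663484 to 6375582 counts leave genes near 1 RPKM with low counts (4 to 16 for Hspb6).

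Genes named are those called at 100, 0.3 or 1 nM, the 3 most abundant of each compartment, those nearest the minimum, Hspa1a and Hspa1b. Up to 4 called genes per list were also named by size of change, with P4hb and cell type markers besides. The members, compartments, lists and tests were chosen with earlier results of these data known. Steps were tested on simulated counts. Alternatives covered the test, normalization, filter, pairwise fit, doses, replicate block and each library left out. Promoters came from RefSeq on GRCm38.p6, matched by symbol for 57 of the 70 symbols.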

Additional observations from a re-analysis of the deposited data

How the results depend on the processing

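With 2 libraries per dose, most calls at 100 nM other than those of Hspb8, Hspb1 and Hsp90b1 lie close to the threshold. The calls of Hsp90b1 at 1 and 3 nM also lie close to it. Depth limits genes near 1 RPKM. Of the comparisons of counts and sums under alternatives, 287 stayed within 1.5 times of the main value or within its spread and 78 did not, and for the latter the cause was not tested. For 37 named genes, the direction and side of the threshold were kept in 707 comparisons, a call was lost in 124, gained in 8, and the sign turned in 12. No pairing by replicate number was seen: deviations of same-numbered libraries correlated between -0.095 and 0.093 in 15 pairs of doses, none over 0.1. Counting noise lowers such correlations, so they cannot exclude a weak pairing. A fit with the replicate block called 0 genes lower at 1 nM and 1 higher at 3 nM, and the other counts stayed within 1.5 times. At 100 nM Hspa4, Hspa2 and Dnajc5 were not called with the block, and the block ended no other call of a named chaperone gene at that dose.

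At 0.3 nM, 1 gene was lower by DESeq2's Wald test and with all genes of at least 1 count. At 1 nM, 0 were lower by DESeq2's Wald test, the likelihood ratio test or without normalization factors. At 3 nM, 1 was higher by DESeq2's Wald test, without normalization factors, with all genes of at least 1 count, with filterByExpr, in the pairwise fit and with TMM over all genes of the table, and 2 were lower by DESeq2's Wald test, without normalization factors and in the pairwise fit. At 10 nM, 0 were higher by DESeq2's Wald test, with all genes of at least 1 count, in the pairwise fit and with TMM over all genes. At 100 nM, 5 were lower by DESeq2's Wald test and without normalization factors. Past 1.5-fold, 2 were higher without normalization factors and 3 lower by DESeq2's Wald test. Between 0.3 and 3 nM, 1 was higher with the likelihood ratio test, without normalization factors, with all genes of at least 1 count, in the pairwise fit and with TMM over all genes, and 0 by DESeq2's Wald test. The falling trends numbered 5 without normalization factors, and 15 with all genes of at least 1 count and with TMM over all genes. Without normalization factors the sums at 100 nM were 102.7% of 0 nM in the cytosol and nucleus and 101.2% in mitochondria. TMM over all genes was chosen after seeing the data.

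With each library left out in turn, the genes lower numbered 0 to 1 at 0.3 nM, 0 to 1 at 1 nM, 1 to 4 at 3 nM and 4 to 10 at 100 nM, and the genes higher 0 to 2 at 3 nM, 0 to 1 at 10 nM and 0 to 3 at 100 nM. Past 1.5-fold, 0 to 2 were higher and 2 to 5 lower. Between 0.3 and 3 nM, 0 to 2 were higher and 0 to 2 lower, and the trends fell in 3 to 11. Where a dose was left with 1 library, that library was taken to vary like the other doses.

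The sign of the log2 fold change at 100 nM turned, with none of these genes called, for Hsp90aa1 (-0.041), Hsp90ab1 (-0.031), Dnajc10 (-0.0055) and Hspd1 (-0.0089) both with all genes of at least 1 count and with TMM over all genes. It also turned for Hspe1 without normalization factors (0.026). With a library left out, the log2 fold change ran from -0.0017 to 0.10 for Hsp90ab1, from -0.090 to 0.053 for Hspe1 and from -0.049 to 1.06 for Hspa1b.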
